A study of Mus musculus with 8 samples.

Results

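The genes described here are Myc and 41 genes whose products make ribosomes in the nucleolus. Their symbols were given as a list, and all 42 were present among the 14042 gene symbols of each deposited table. They were measured by RNA sequencing in 8 mouse libraries that form 4 groups of 2. The first pair of groups is naive CD4 T cells, sorted as CD62L high and CD44 low, from wild type (WT) mice and from mice with the genotype C5aR1-/- (KO), which lack a receptor for the complement fragment C5a. The other pair is donor CD4 T cells that carried CXCR5 and much PD1 on their surface, as T follicular helper (TFH) cells do, and were sorted from (bxd)F1 hosts. WT or KO spleen cells without CD8 cells had been transferred into those hosts 7 days earlier. The deletion was present in every donor cell type and not in the sorted cells alone. The sources used here do not give the C5aR1 genotype of the hosts or the strain, age and number of the mice. Naive cells had not passed through a host, so transfer, host, time and sort cannot be told apart in the comparison of TFH-labelled with naive-labelled libraries.

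MYC is a transcription factor that pairs with MAX and binds E-box sequences in promoters. In activated lymphocytes it is known for raising the output of genes for nutrient uptake, nucleotide synthesis and ribosome assembly. Ribosome assembly starts in the nucleolus, where RNA polymerase I makes the long precursor of ribosomal RNA. Small nucleolar RNA-protein particles (snoRNPs) then modify that precursor, and separate sets of processing factors carry it towards the small and the large ribosomal subunit. The members fall into Myc itself, 5 genes of RNA polymerase I, 10 genes of the snoRNP cores and nucleolar chaperones, 13 small subunit factors and 13 large subunit factors.

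Values are the deposited log2 values, on which a difference of 1 is a doubling, and replicates are given in the order 1 and 2. Each value is a level relative to the other genes of its library, and levels are compared here between libraries and not between genes. In bulk libraries such as these, fewer cells of a type and less RNA per cell cannot be told apart. A change is the mean of the TFH-labelled pair minus the mean of the naive pair of the same genotype, with its standard error (SE) from limma, and genes with an adjusted p below 0.05 are termed called. Nothing in the labels says that both libraries of a pair are from different mice, so p-values reflect only the spread among these samples, and that spread may be technical.

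Promoter sequences show which members carry the E-box CACGTG that MYC and MAX are known to bind. RefSeq promoters on GRCm38.p6, running from 250 bases before to 50 bases after the start, were found for 36 of the 42 members, and not for Bop1, Fbl, Myc, Npm1, Rrp12 and Rrs1. CACGTG reads the same on both strands. The first 3 windows below are those with the E-box before the start, Ltv1 and Tsr1 carry it after the start, and Ddx21, Noc2l and Ppan carry a related E-box there, CACGCG, or CGCGTG on the other strand. The last window is Gnl3, the member with the largest change, in which no E-box of these kinds was found. The 5 windows after the start and that of Gnl3 were chosen after their values were seen, and only from members called higher. CACGCG or CGCGTG also lay after the start in Nhp2, Nop16, Polr1e and Utp15, called in neither genotype. CACGCG lay there in Nop10 too, which was called lower in KO. Capitals mark the E-box.
Imp4, chr1:34439681-34439740, plus strand: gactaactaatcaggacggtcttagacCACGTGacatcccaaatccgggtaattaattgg
Nop2, chr6:125131796-125131855, plus strand: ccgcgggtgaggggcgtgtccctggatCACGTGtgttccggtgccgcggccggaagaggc
Rrn3, chr16:13780624-13780683, plus strand: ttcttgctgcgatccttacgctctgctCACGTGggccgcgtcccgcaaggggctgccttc
Ltv1, chr10:13193092-13193121, minus strand: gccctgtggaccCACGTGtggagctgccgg
Tsr1, chr11:74898092-74898121, plus strand: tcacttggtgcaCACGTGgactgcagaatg
Ddx21, chr10:62602249-62602278, minus strand: tgtcgccctctctcctagCACGCGgttgag
Noc2l, chr4:156236015-156236044, plus strand: ggaagtgcggcgCACGCGgctgggcgcgcc
Ppan, chr9:20888175-20888204, plus strand: gttacgagcCGCGTGgcaccggaagttggc
Gnl3, chr14:31019132-31019251, minus strand: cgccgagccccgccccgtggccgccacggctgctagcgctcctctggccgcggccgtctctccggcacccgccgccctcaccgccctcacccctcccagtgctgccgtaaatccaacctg

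The E-box positions differed between the sides of the start. CACGTG lay in 9 of the 36 member promoters (25.0%, exact binomial 95% interval 12.1 to 42.2) and in 11.3% of the promoters of 10875 measured genes. In the 250 bases before the start it was found in 3 members (8.3%) and in 9.5% of measured genes. In the 50 bases after the start, a window looked at after the data had been seen, it was found in 6 members (16.7%) and in 1.7% of measured genes. Those 6 were Ltv1, Tsr1, Mybbp1a, Pes1, Utp20 and Wdr43. With CACGCG and CGCGTG counted as well, which are one motif read on either strand, 21 members (58.3%) and 27.4% of measured genes had a match, and in the 50 bases after the start 14 members (38.9%) and 5.5%. The annotated start can move a match from one side to the other: for 26 of the 36 members the first 20 bases after the RefSeq start lay in a GENCODE transcript. Of the 9 members with CACGTG, 3 were called in WT or KO (Imp4, Ltv1 and Tsr1), against 12 of the 27 without it. Of all genes, 26.3% were called in WT and 19.5% in KO. The share of all genes called in either genotype, which is at least 26.3%, was not counted, so these member counts have no like figure beside them. A match is a description of these letters and not a measured binding site.

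More members were higher than lower in the TFH-labelled libraries of both genotypes. In WT, 13 of 42 members (31%) were called higher and 0 lower, where 26.3% of all 14042 genes were called in either direction, 12.6% higher and 13.7% lower. In KO, 10 members (23.8%) were called higher and 2 (4.76%) lower, where 19.5% of all genes were called, 9.12% higher and 10.4% lower. The median change of the members was 0.23 in WT and 0.20 in KO, beside 0.01 and -0.01 over all genes. Changes ran from -0.36 to 1.06 in WT and from -0.61 to 1.19 in KO, and 33 and 32 members had a positive change. Both TFH-labelled libraries lay above both naive ones for 29 members in WT, where 33.1% of all genes did so, and for 26 in KO, where 27.6% did so.

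Called members of the WT and KO comparisons overlapped in part. These comparisons share no library, but both use the spread estimated from all 8 libraries, so their calls are not independent. Myc, Nop56, Nop58, Gnl3, Ltv1, Ppan and Ddx21 were called higher in both genotypes, which is 7 of the 13 called in WT and 7 of the 10 called higher in KO. Gar1, Ncl, Npm1, Fbl, Noc2l and Noc4l were called higher in WT alone, and Imp4, Tsr1 and Nolc1 in KO alone. Nop10 and Wdr12 were called lower in KO. The remaining 24 members were called in neither genotype. A call in 1 genotype alone does not show a difference between genotypes, and no member was called in the interaction below, which tests that difference.

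**Figure D1:**
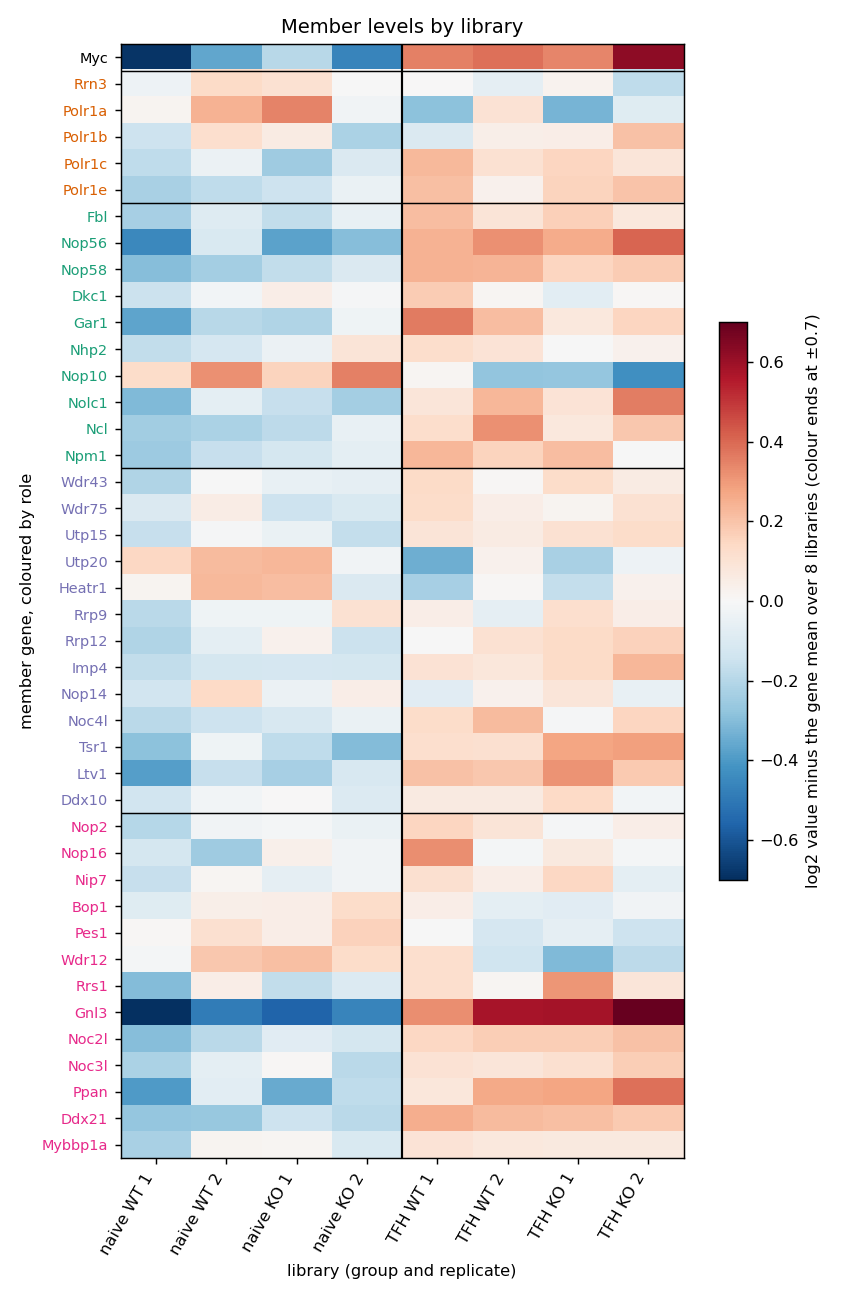
Log2 value of each of the 42 members (rows, coloured by role) in each of the 8 libraries (columns), minus the gene's mean over all libraries; red is above and blue below that mean, and the colour scale ends at ±0.7. Myc and Gnl3 carry the strongest contrast between the 4 naive and the 4 TFH-labelled columns, and Nop10 runs the other way.

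The libraries differed in other respects that ran beside these values. The median member stood at -0.19 relative to the gene means in naive WT replicate 1, from -0.08 to -0.04 in the other naive libraries and from 0.08 to 0.12 in the TFH-labelled ones. That same library had the highest level of 20 measured myeloid markers, with a log2 summed level of 15.87 against 14.31 to 14.52 in the other naive libraries and 12.26 to 13.74 in the TFH-labelled ones. The summed level of 21 measured B cell markers ran from 14.54 to 15.69 in the naive libraries, was 13.54 in WT and 13.28 in KO for replicate 1 of the TFH-labelled pairs, and 15.60 and 17.06 for replicate 2. No marker is listed at 0, since the lowest deposited value is 1.16. With the mean of the B cell markers as a covariate, 15 members were called higher and 1 lower in WT, and 11 and 2 in KO, with medians of 0.24 and 0.20. The part of the myeloid markers was not tested.

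Fewer members were called when 1 library of a compared group was left out, and calls over all genes fell as well. In WT, 6 members were called without naive WT replicate 1, and 8 when either replicate 1 or replicate 2 of TFH WT was left out. In KO, the median was 0.172 without naive KO replicate 1 and 0.155 without naive KO replicate 2. It was 0.218 without TFH KO replicate 1 and 0.19 without TFH KO replicate 2. Without replicate 2 of both TFH-labelled pairs, the libraries with more B cell transcripts, 1 library was left in each TFH-labelled group. Fewer members and fewer of all genes were then called, and the member medians were 0.26 in WT and 0.19 in KO. Myc, Nop58, Gnl3 and Ddx21 were called in WT in each of the 8 fits that left out a library, and Myc, Nop56, Tsr1 and Gnl3 in KO. Of those 8 fits, the ones without a library of the other genotype left the change as it was and altered only the estimate of its spread. No member's change reversed from called in one direction to the other under any alternative.

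T cell identity and the sort were checked against transcripts. The summed level of 15 measured T cell identity markers ran from 18.88 to 19.00 over the 4 naive libraries and from 18.69 to 18.80 over the 4 TFH-labelled ones, so the labels did not overlap, and 4 of the 15 were called lower in WT and 5 in KO. Of 14 markers of CD8 T and NK cells, 6 were called lower in WT and 5 in KO. The part of these markers in the results was not tested. Of 13 TFH marker genes, 7 were called higher in WT and 5 in KO. Cxcr5, the gene of the receptor used in the sort, was at 12.45 and 11.56 in naive WT, 11.86 and 12.30 in naive KO, 11.56 and 11.33 in TFH WT, and 10.85 and 11.23 in TFH KO. Its change was -0.57 in WT and -1.04 in KO, neither called, so its transcript level was not higher in the TFH-labelled libraries. Of 28 cell cycle genes, 24 were called higher in WT and 9 in KO. The deleted gene, C5ar1, was not analysed here and gives no check of the genotypes.

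Myc, at chr15:61985391-61990374 on GRCm38, had the second largest change among the members. Its level was 11.15 and 11.47 in naive WT, 11.65 and 11.37 in naive KO, 12.19 and 12.23 in TFH WT, and 12.18 and 12.46 in TFH KO. All 4 TFH-labelled libraries were above all 4 naive ones. The lowest naive value was that of naive WT replicate 1. The change was 0.90 ± 0.14 in WT and 0.81 ± 0.14 in KO. Myc was called in each of 19 settings in both genotypes, with a change from 0.74 to 1.06 in WT and from 0.67 to 0.95 in KO. Myc is itself a gene that is induced within the first phase of a response, and 17 of 22 other immediate early and heat shock genes were called higher in WT and 17 in KO. Their part in the level of Myc was not tested.

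**Figure D2:**
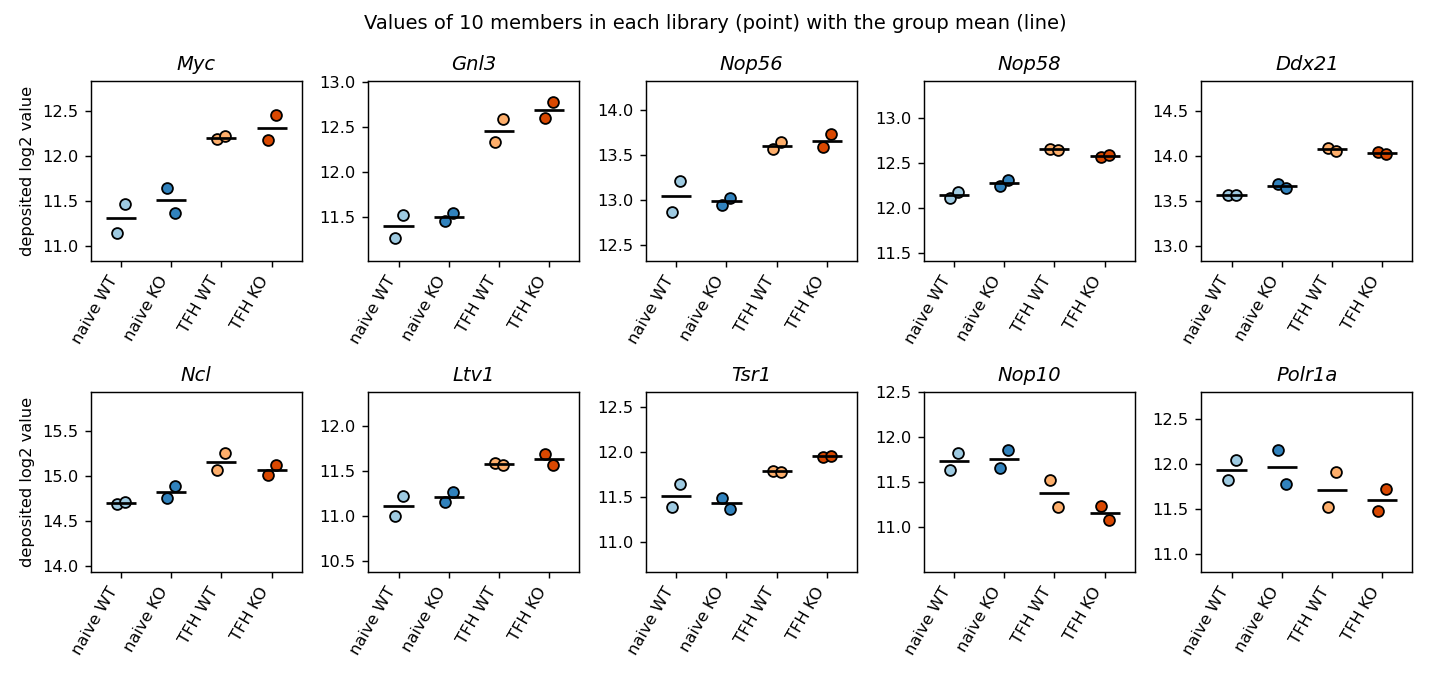
Deposited log2 values of 10 members in each library (points) with the mean of each group (line); each panel has its own vertical range of equal height. Myc, Gnl3, Nop56, Nop58, Ddx21, Ncl, Ltv1 and Tsr1 show TFH-labelled points above the naive points, Nop10 shows them below, and the points of Polr1a overlap in WT.

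Among the role groups with several genes, the snoRNP cores and nucleolar chaperones held the largest share of called members. In WT 6 of these 10 genes (60%) were called higher, beside 12.6% of all genes, with a median change of 0.37. In KO 3 were called higher (30%) and 1 lower (10%), with a median of 0.23, beside 9.12% and 10.4% of all genes. Box C/D snoRNPs guide methylation of ribosomal RNA. Their members here are Fbl, the methyltransferase fibrillarin, and Nop56 and Nop58, the scaffold that holds it on the guide RNA, and in WT all 3 were called higher.

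Nop58 stood at 12.12 and 12.18 in naive WT, 12.24 and 12.31 in naive KO, 12.66 and 12.65 in TFH WT, and 12.57 and 12.59 in TFH KO. Replicates lay close together in every group, and no TFH-labelled library overlapped a naive one. Its change was 0.51 ± 0.09 in WT (adjusted p = 0.00226) and 0.30 ± 0.09 in KO (adjusted p = 0.0413). The KO call was lost in each of the 8 fits without 1 library, with changes from 0.27 to 0.34, while the WT call was kept in all 8.

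Nop56 was at 12.87 and 13.21 in naive WT, 12.94 and 13.02 in naive KO, 13.56 and 13.64 in TFH WT, and 13.58 and 13.73 in TFH KO. The labels did not overlap, and naive WT was the most spread pair. Its change was 0.56 ± 0.12 in WT (adjusted p = 0.00642) and 0.67 ± 0.12 in KO (adjusted p = 0.00306). Without naive WT replicate 1 the WT value was 0.39 (adjusted p = 0.0661). Fbl changed by 0.32 ± 0.10 in WT (adjusted p = 0.0445), a call that was kept in only 2 of the 8 fits without 1 library, and by 0.23 in KO (adjusted p = 0.153). Of all stretches of 51 bases, the read length, in the transcripts of Fbl, 67.4% also occur in transcripts of other genes, and for Nop56 the share is 30.2%, so the division of reads between these genes and their near-copies is uncertain.

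Box H/ACA snoRNPs guide the conversion of uridine to pseudouridine, and the same core proteins bind telomerase RNA. Their members did not move together. Gar1, a core protein that helps release the modified RNA, was at 10.04 and 10.21 in naive WT, 10.19 and 10.37 in naive KO, 10.77 and 10.62 in TFH WT, and 10.47 and 10.55 in TFH KO. The labels were separate, with the gap wider in WT. Its change was 0.57 ± 0.12 in WT (adjusted p = 0.00571) and 0.23 ± 0.12 in KO (adjusted p = 0.226), and the WT call was lost without TFH WT replicate 1 (0.50, adjusted p = 0.0581). Dkc1, the pseudouridine synthase dyskerin, changed by 0.18 in WT and -0.05 in KO, and Nhp2, a core RNA-binding protein, by 0.26 and -0.01, none of them called.

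Nop10, the smallest core protein of the same particle, lay on the other side of 0. It was at 11.64 and 11.83 in naive WT, 11.66 and 11.86 in naive KO, 11.52 and 11.23 in TFH WT, and 11.23 and 11.07 in TFH KO. Every TFH-labelled library was below every naive one. Its change was -0.36 ± 0.13 in WT (adjusted p = 0.0623), and in KO it fell by 0.61 ± 0.13 (adjusted p = 0.00695). The KO call was lost without naive KO replicate 2 (-0.51, adjusted p = 0.0518) and without TFH KO replicate 2 (-0.53, adjusted p = 0.0592). Values of Nop10 in each library were looked at after its change had been seen.

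Among the nucleolar chaperones Ncl and Npm1 were called in WT and Nolc1 in KO. Ncl encodes nucleolin, which binds the nascent ribosomal RNA. Its level was 14.69 and 14.71 in naive WT, 14.75 and 14.88 in naive KO, 15.06 and 15.25 in TFH WT, and 15.00 and 15.12 in TFH KO. The labels did not overlap in either genotype. The change was 0.45 ± 0.11 in WT (adjusted p = 0.00881), lost without TFH WT replicate 2 (0.36, adjusted p = 0.0951), and 0.25 ± 0.11 in KO (adjusted p = 0.129).

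Npm1, the histone and ribosomal protein chaperone nucleophosmin, changed by 0.40 ± 0.10 in WT (adjusted p = 0.0152) and 0.20 ± 0.10 in KO (adjusted p = 0.206). The WT call was lost when naive WT replicate 1 was left out (0.35, adjusted p = 0.0917), and likewise for TFH WT replicate 1 (0.36, adjusted p = 0.101) or replicate 2 (0.44, adjusted p = 0.0558). Of its windows of 51 bases, 31.6% occur in other genes. Nolc1, a chaperone of snoRNPs, changed by 0.35 ± 0.12 in WT (adjusted p = 0.0568) and 0.43 ± 0.12 in KO (adjusted p = 0.0304). The KO value fell short of the threshold without TFH KO replicate 2 (0.29, adjusted p = 0.231), naive KO replicate 1 (adjusted p = 0.0656) or naive KO replicate 2 (adjusted p = 0.123).

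Large subunit factors included the member with the largest change. Of these 13 genes, 4 were called higher in WT (30.8%, beside 12.6% of all genes), with a median change of 0.23 over the group. In KO 3 were called higher (23.1%) and 1 lower (7.69%), with a median of 0.11, beside 9.12% and 10.4% of all genes. Gnl3 encodes nucleostemin, a nucleolar GTPase of proliferating and stem cells that takes part in precursor processing for the large subunit. The gene lies at chr14:31012433-31019152 on GRCm38, minus strand, and the promoter printed above ends next to its RefSeq start.

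Gnl3 was at 11.27 and 11.52 in naive WT, 11.45 and 11.54 in naive KO, 12.33 and 12.58 in TFH WT, and 12.59 and 12.78 in TFH KO. The lowest TFH-labelled library was far above the highest naive one. The change was 1.06 ± 0.12 in WT (adjusted p = 0.000135) and 1.19 ± 0.12 in KO (adjusted p = 7.43e-05). Both calls were kept in each of 19 settings, with values from 0.94 to 1.19 in WT and from 1.10 to 1.32 in KO.

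Ddx21, an RNA helicase that binds both ribosomal RNA and snoRNAs, was at 13.57 and 13.57 in naive WT, 13.69 and 13.65 in naive KO, 14.09 and 14.06 in TFH WT, and 14.05 and 14.02 in TFH KO. Replicates were nearly level within each group, and the labels were separate. Its change was 0.51 ± 0.09 in WT (adjusted p = 0.00249), called in each of 19 settings, and 0.36 ± 0.09 in KO (adjusted p = 0.0194). The KO call was kept in 4 of the 8 fits without 1 library and was lost without either library of naive KO or of TFH KO (adjusted p from 0.0539 to 0.0856).

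Noc2l, a factor that accompanies large subunit precursors out of the nucleolus, was at 12.73 and 12.84 in naive WT, 12.96 and 12.91 in naive KO, 13.18 and 13.21 in TFH WT, and 13.21 and 13.24 in TFH KO. Each TFH-labelled library was above each naive one. The change was 0.40 ± 0.10 in WT (adjusted p = 0.00973) and 0.29 ± 0.10 in KO (adjusted p = 0.0541). Without naive WT replicate 1 the WT value was 0.35 (adjusted p = 0.0720), and without TFH WT replicate 2 it was 0.39 (adjusted p = 0.0671). Exons of Noc2l share 598 bases with Samd11 on the opposite strand, and whether the counting used strand is not stated. Samd11 itself changed by -0.21 in WT and -0.24 in KO and was not called.

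Ppan, a processing factor for the large subunit precursor, was at 11.59 and 11.91 in naive WT, 11.63 and 11.80 in naive KO, 12.06 and 12.25 in TFH WT, and 12.26 and 12.37 in TFH KO. The labels did not overlap within either genotype, and naive WT replicate 2 came close to TFH WT replicate 1. The change was 0.41 ± 0.13 in WT (adjusted p = 0.0336) and 0.60 ± 0.13 in KO (adjusted p = 0.00698). Without naive WT replicate 1 the WT value was 0.25 (adjusted p = 0.257), and it was also not called without TFH WT replicate 1 (0.50, adjusted p = 0.0504) or replicate 2 (0.32, adjusted p = 0.211). The KO value without TFH KO replicate 2 was 0.54 (adjusted p = 0.0544).

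The PeBoW complex, formed by Pes1, Bop1 and Wdr12 and needed to process the precursor of the large subunit RNA, had no member called higher. Pes1 changed by -0.12 in WT and -0.21 in KO, and Bop1 by 0.01 and -0.14. Wdr12 was at 10.69 and 10.89 in naive WT, 10.92 and 10.83 in naive KO, 10.82 and 10.57 in TFH WT, and 10.40 and 10.52 in TFH KO. The labels overlapped in WT and were separate in KO. Its change was -0.10 ± 0.13 in WT (adjusted p = 0.619), and in KO it fell by 0.41 ± 0.13 (adjusted p = 0.0394). That call was lost when either library of naive KO or of TFH KO was left out (adjusted p from 0.0815 to 0.161) and without the robust option of limma (adjusted p = 0.0535), without the mean-variance trend (adjusted p = 0.0844) or with library quality weights (adjusted p = 0.0512). It was also lost with libraries centred on ribosomal protein genes (-0.35, adjusted p = 0.0961) or on reference genes (-0.28, adjusted p = 0.317). Values of Wdr12 in each library were looked at after its change had been seen.

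The other 6 large subunit factors were called in neither genotype. They were the RNA methyltransferase Nop2, the assembly factors Nop16, Nip7 and Noc3l, Rrs1, which takes part in bringing the small ribosomal RNA of the large subunit into the particle, and the nucleolar protein Mybbp1a. Their changes ran from 0.15 for Nip7 to 0.34 for Nop16 in WT and from 0.02 for Nop16 to 0.33 for Rrs1 in KO. All were positive in both genotypes. Nop2, which holds the E-box before its start printed above, changed by 0.23 ± 0.10 in WT (adjusted p = 0.116) and 0.05 ± 0.10 in KO (adjusted p = 0.781).

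**Figure D3:**
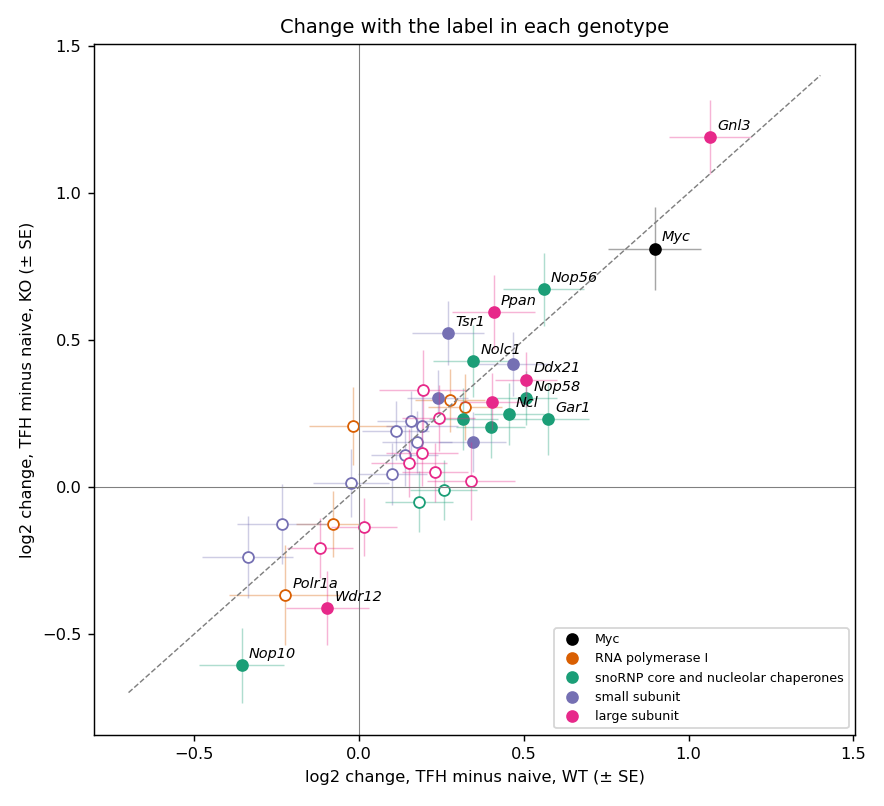
Log2 change from naive to TFH-labelled libraries in WT (horizontal) against KO (vertical) for each of the 42 members, coloured by role, with bars of ± 1 SE; filled points were called in at least 1 genotype and the dashed line marks equal changes. Gnl3 and Myc stand apart at the upper right, and Nop10 and Wdr12 are the filled points below 0 in KO.

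Among 13 small subunit factors, 2 were called higher in WT (15.4%, beside 12.6% of all genes) and 3 in KO (23.1%, beside 9.12%), with median changes of 0.16 and 0.15. The WT share is near that of all genes. The called genes act late in assembly or belong to the small subunit processome. Ltv1, a late assembly factor that leaves the particle in the cytoplasm, was at 10.99 and 11.22 in naive WT, 11.15 and 11.27 in naive KO, 11.58 and 11.56 in TFH WT, and 11.69 and 11.56 in TFH KO. Its labels did not overlap. The change was 0.47 ± 0.11 in WT (adjusted p = 0.00914) and 0.42 ± 0.11 in KO (adjusted p = 0.0211). In each genotype the call was kept in 5 of the 8 fits without 1 library, which include those without a library of the other genotype. The WT call was lost without naive WT replicate 1 (0.36), TFH WT replicate 1 (0.46) or TFH WT replicate 2 (0.48). In KO it was lost without naive KO replicate 1 (0.36), TFH KO replicate 1 (0.35) or TFH KO replicate 2 (0.48).

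Tsr1, a GTPase-like factor of the late small subunit precursor, was at 11.38 and 11.64 in naive WT, 11.49 and 11.37 in naive KO, 11.79 and 11.78 in TFH WT, and 11.95 and 11.96 in TFH KO. The labels were separate, with the wider gap in KO. The change was 0.27 ± 0.11 in WT (adjusted p = 0.0916) and 0.52 ± 0.11 in KO (adjusted p = 0.00632), and the difference of these changes was 0.25 (95% interval -0.09 to 0.59). In KO the call was kept in each of the 8 fits without 1 library. Exons of Tsr1 share 1240 of their 3837 bases with Srr on the opposite strand, and reads there cannot be told apart without strand. Srr changed by 0.25 in WT and 0.29 in KO, neither called.

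Noc4l, a processome factor that pairs with the product of Nop14, was at 11.23 and 11.28 in naive WT, 11.31 and 11.38 in naive KO, 11.56 and 11.65 in TFH WT, and 11.42 and 11.58 in TFH KO. Labels did not overlap. The change was 0.34 ± 0.10 in WT (adjusted p = 0.0269), kept in 4 of the 8 fits without 1 library and lost without any library of the WT groups (adjusted p from 0.0739 to 0.170), and 0.15 ± 0.10 in KO (adjusted p = 0.336). Imp4, an early processome factor whose promoter E-box is printed above, was at 11.90 and 11.95 in naive WT, 11.95 and 11.95 in naive KO, 12.17 and 12.15 in TFH WT, and 12.20 and 12.30 in TFH KO. The naive libraries were nearly level, and all 4 TFH-labelled libraries lay above them. Its change was 0.24 ± 0.09 in WT (adjusted p = 0.0835) and 0.30 ± 0.09 in KO (adjusted p = 0.0417), and the KO call was kept in 0 of the 8 fits without 1 library, whose changes ran from 0.25 to 0.35.

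The other 9 small subunit factors were called in neither genotype. Heatr1, Wdr43, Wdr75 and Utp15 are subunits of the complex that meets the precursor as it is made. Heatr1 changed by -0.23 in WT and -0.13 in KO, while the other three changed by 0.11 to 0.18 in WT and 0.15 to 0.22 in KO. Utp20, a very large scaffold protein of the processome, had the lowest change of the group at -0.34 ± 0.14 in WT (adjusted p = 0.0982) and -0.24 ± 0.14 in KO (adjusted p = 0.273). The snoRNP protein Rrp9, the export factor Rrp12, the helicase Ddx10 and Nop14 changed by -0.03 to 0.19 in WT and 0.01 to 0.21 in KO.

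None of the 5 members of RNA polymerase I was called in either genotype. The 4 with the smallest p in WT are given by library. Polr1e, a subunit that aids initiation and elongation, was at 10.35 and 10.40 in naive WT, 10.44 and 10.53 in naive KO, 10.79 and 10.61 in TFH WT, and 10.73 and 10.78 in TFH KO. Its labels were separate, and it changed by 0.32 ± 0.11 in WT (adjusted p = 0.0550) and 0.27 ± 0.11 in KO (adjusted p = 0.115). Polr1c, a subunit shared with RNA polymerase III, was at 11.26 and 11.41 in naive WT, 11.20 and 11.34 in naive KO, 11.67 and 11.55 in TFH WT, and 11.60 and 11.53 in TFH KO. These labels were separate too, with a change of 0.28 ± 0.11 in WT (adjusted p = 0.0768) and 0.29 ± 0.11 in KO (adjusted p = 0.0747).

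Polr1a, the largest catalytic subunit, was at 11.82 and 12.05 in naive WT, 12.15 and 11.78 in naive KO, 11.52 and 11.90 in TFH WT, and 11.47 and 11.72 in TFH KO. It had the widest replicate spread of the members, its labels overlapped in WT, and its change was -0.22 ± 0.17 in WT (adjusted p = 0.375) and -0.37 ± 0.17 in KO (adjusted p = 0.166). Rrn3, the factor that brings the polymerase to its promoter and whose own promoter E-box is printed above, was at 11.33 and 11.50 in naive WT, 11.48 and 11.36 in naive KO, 11.37 and 11.31 in TFH WT, and 11.39 and 11.19 in TFH KO. The labels overlapped in both genotypes. Its change was -0.08 ± 0.11 in WT (adjusted p = 0.647) and -0.13 ± 0.11 in KO (adjusted p = 0.483). Polr1b, the second largest subunit, changed by -0.02 in WT and 0.21 in KO. The 95% intervals of the 5 genes lay between -0.61 and 0.57 in WT and between -0.75 and 0.53 in KO.

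Several members carry snoRNA genes within their own bounds, a feature the choice of members did not use. By GENCODE vM21 these were Nop56, Nop58, Dkc1, Ncl, Wdr43, Tsr1, Gnl3 and Ppan, 8 of 42 members (19.0%), against 1.9% of measured genes. Gnl3 holds Snord19 and Snord69, and Nop58 holds Snord11 and Snord70. Of the 8, 5 were called higher in WT and 5 in KO (62.5% each), and of the 34 without a snoRNA gene 8 (23.5%) and 5 (14.7%). Over 259 measured genes with a snoRNA gene inside, 23.6% were called higher in WT and 15.8% in KO. The snoRNAs themselves were not measured here, and this split of the members was made after their changes had been seen.

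The difference between genotypes was then compared within each label. In the TFH-labelled libraries 0 of 42 members were called between KO and WT, 0 also had an unadjusted p below 0.05, and 0% of all genes were called (506 genes, 3.6%, at the unadjusted p). Member differences, KO minus WT, ran from -0.23 to 0.23 with a median of -0.01 and SE from 0.093 to 0.169. Their 95% intervals lay between -0.51 and 0.50, so differences beyond that size in either direction fell outside the interval of every member. Gnl3 had the highest difference at 0.23 (95% interval -0.05 to 0.50), and Wdr12 and Nop10 the lowest at -0.23 (-0.51 to 0.04) and -0.22 (-0.50 to 0.06). For Myc it was 0.11 (-0.20 to 0.42). Both KO libraries lay above both WT libraries for 9 members and below for 8, where 16.5% of all genes did so in each direction.

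In the naive libraries 0 members were called and 0 had an unadjusted p below 0.05, where 0.0712% of all genes (10 genes) were called, 0.0356% higher and 0.0356% lower, and 355 genes (2.53%) passed at the unadjusted p. Differences ran from -0.10 to 0.20 with a median of 0.05, and the 95% intervals lay between -0.39 and 0.51. Myc had the highest at 0.20 (95% interval -0.11 to 0.51). The positive median rested on naive WT replicate 1, since it was -0.02 without that library and 0.13 without naive WT replicate 2.

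**Figure D4:**
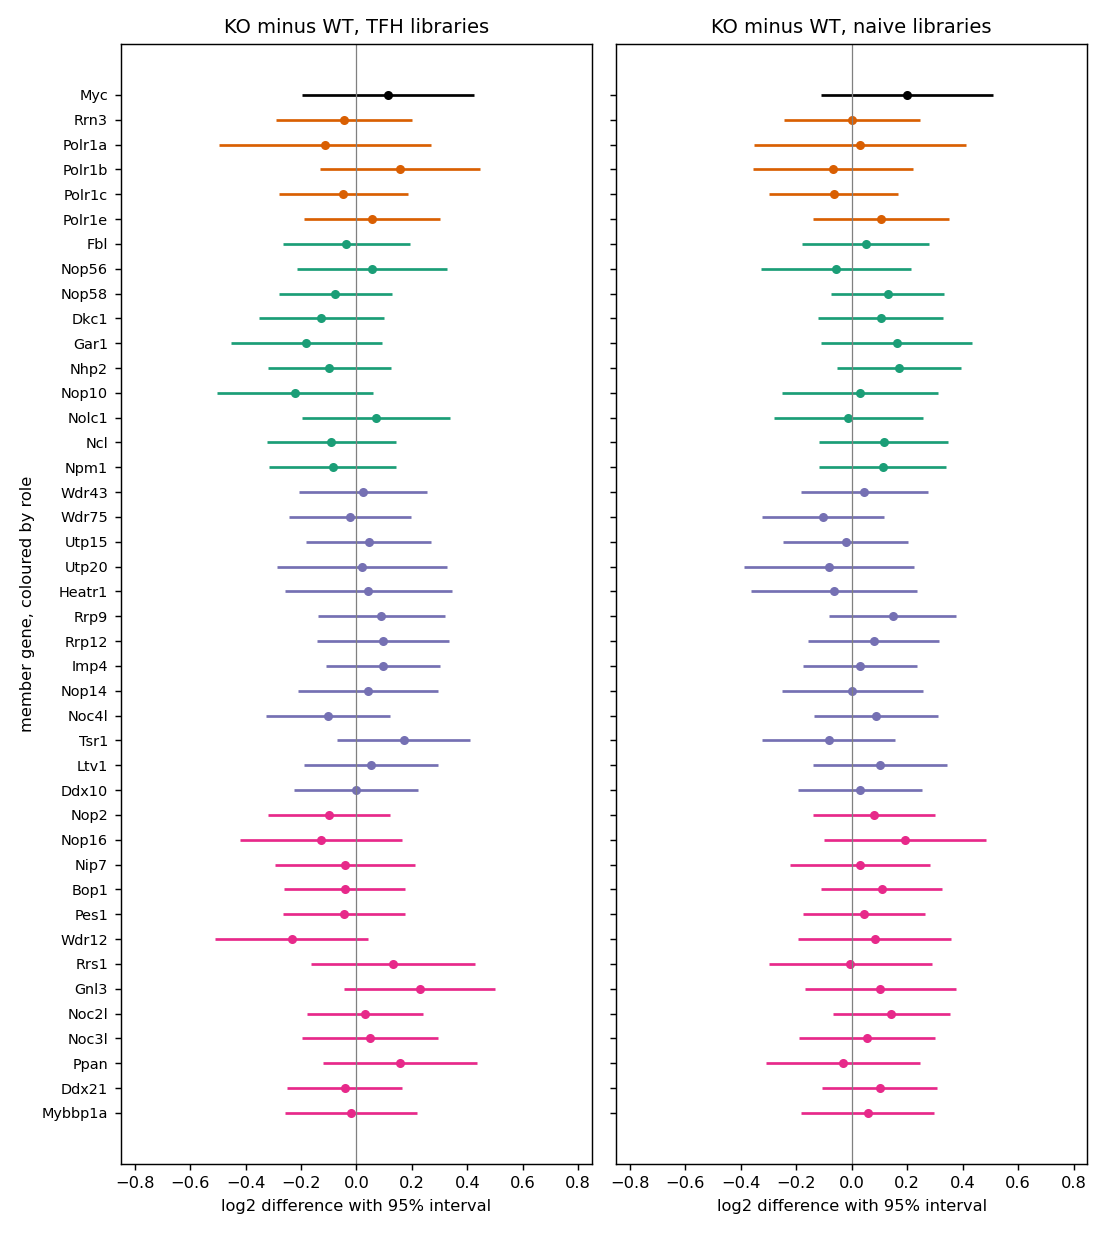
Difference KO minus WT on the log2 scale (points) with its 95% interval (lines) for each member in the TFH-labelled (left) and the naive (right) libraries, coloured by role. Every interval in both panels includes 0.

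The interaction asks whether the change with the label differed between genotypes, and uses all 8 libraries. No member was called, 0 had an unadjusted p below 0.05, and 0.0142% of all genes (2 genes) were called, 0.00712% in each direction, with 614 (4.37%) at the unadjusted p. The change was smaller in KO than in WT for 27 of 42 members and for 7372 of all 14042 genes. The median of this difference over the members was -0.05, and it turned to 0.03 without naive WT replicate 1, to 0.02 with libraries centred on ribosomal protein genes and to 0.155 with centring on reference genes, which put the median of all genes at 0.196. KO change minus WT change ran from -0.34 for Gar1 (95% interval -0.73 to 0.04, unadjusted p = 0.0754) to 0.25 for Tsr1. In the snoRNP group 8 of 10 differences were negative with a median of -0.21, and in the small subunit group 8 of 13 were positive with a median of 0.04. These comparisons share libraries with those above, and the values are given side by side as a description.

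Genes of the same pathway outside the member list were counted in the same fit. They were listed with earlier results of these data known. Of 21 measured partners and antagonists of MYC, 5 were called higher (23.8%) and 1 lower (4.76%) in WT, and 4 (19%) and 0 in KO. Of all genes, 12.6% were called higher and 13.7% lower in WT, and 9.12% and 10.4% in KO. Mxd1 and Mxd3 encode MAX partners that repress the E-box genes MYC activates. Mxd1 was at 10.54 and 10.49 in naive WT, 10.76 and 10.35 in naive KO, 11.72 and 11.65 in TFH WT, and 11.67 and 11.73 in TFH KO. No TFH-labelled library overlapped a naive one, and Mxd1 rose by 1.17 ± 0.13 in WT and 1.14 ± 0.13 in KO. Mxd3 rose by 1.22 ± 0.24 in WT (adjusted p = 0.00394), and its value in KO was 0.30 (adjusted p = 0.447). Fbxw7, which marks MYC protein for degradation, rose by 0.53 in WT and 0.52 in KO, while Usp28, a deubiquitinase that opposes it, fell by 0.57 in WT (adjusted p = 0.0129) and stood at -0.22 in KO (adjusted p = 0.316).

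MYC is also known to act on many genes outside the nucleolus. Of 40 such targets, 18 were called higher (45%) and 2 lower (5%) in WT, with a median change of 0.27. In KO 9 were called higher (22.5%) and 3 lower (7.5%), with a median of 0.04. The shares of all genes were 12.6% and 13.7% in WT, and 9.12% and 10.4% in KO. The transferrin receptor gene Tfrc rose by 1.01 ± 0.09 in WT and 0.82 in KO. Slc3a2, the heavy chain of amino acid transporters, rose by 1.04 ± 0.12 and 1.10. Nampt, an enzyme of NAD synthesis, rose by 0.87 and 0.50, and Hnrnpa1, a splicing factor, by 0.85 and 0.56.

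Other genes of ribosome assembly were mixed. Of 53 further large subunit factors, 11 were called higher and 1 lower in WT, and 10 and 2 in KO, and of 45 further small subunit factors 6 and 2 in each genotype. The shares called higher were 20.8% and 18.9% for the large subunit list and 13.3% in both genotypes for the small subunit list, beside 12.6% of all genes in WT and 9.12% in KO. Zfp622, a late factor of the large subunit, rose by 1.10 ± 0.10 in WT and 1.25 in KO, and Rsl1d1, Nufip1, a snoRNP assembly factor, and the helicase Ddx24 rose by 0.50 to 0.91 in WT. Among small subunit factors, Tsr2, a ribosomal protein chaperone, rose by 0.61 in WT and 0.82 in KO, and Pno1, the methyltransferase Dimt1 and the endonuclease Nob1 by 0.51 to 0.57 in WT. Of 20 genes of the RNA exosome and precursor trimming, 4 were called higher (20%) and 2 lower (10%) in WT, and 3 and 3 (15% each) in KO. All genes had 12.6% higher and 13.7% lower in WT, and 9.12% and 10.4% in KO. The medians of the list were 0.04 and -0.06. Mphosph6, an exosome cofactor, was up by 1.02 in WT and 0.76 in KO, and the catalytic subunit Dis3 by 0.57 and 0.52. The exonuclease Isg20l2 was up by 0.40 and 0.37, and the ring subunit Exosc4 was down, at -0.45 and -0.44.

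Of 37 other genes of RNA polymerases I and III, 2 were called higher (5.41%) and 5 lower (13.5%) in WT, beside 12.6% and 13.7% of all genes, and 3 and 3 (8.11% each) in KO, beside 9.12% and 10.4%. The share called lower in WT was thus that of all genes. Taf1d, part of the selectivity factor of RNA polymerase I, rose by 0.75 in WT and 0.91 in KO. Polr1d, a subunit shared by both polymerases, rose by 0.58 in WT and was at 0.33 in KO (adjusted p = 0.0566). Polr3e, a subunit of RNA polymerase III, fell by 0.56 in WT and by 0.35 in KO (adjusted p = 0.0419). Gtf3c3, of its assembly factor TFIIIC, fell by 0.55 in WT and was at -0.27 in KO (adjusted p = 0.110).

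Genes of the finished ribosome had few calls. Of 82 cytosolic ribosomal protein genes 3 were called higher (3.66%) and 0 lower in WT, with a median change of 0.01. In KO 0 were called higher and 1 lower (1.22%), with a median of -0.07. Since the deposited libraries were on 1 common distribution, a joint shift of these genes may be reduced in the values, which was not tested. The 3 called higher in WT were Rpl3, Rpl4 and Rpl22l1, with changes of 0.27, 0.33 and 0.42. Of 38 translation factors 5 were called higher (13.2%) and 1 lower (2.63%) in WT, and 4 higher and 1 lower (2.63%) in KO. All genes had 12.6% called higher and 13.7% lower in WT, and 9.12% and 10.4% in KO. In both genotypes the share of translation factors called higher was thus near that of all genes, and the share called lower was smaller. Eif1, a factor of start codon choice, was at 14.53 and 14.62 in naive WT, 14.56 and 14.71 in naive KO, 15.90 and 15.85 in TFH WT, and 16.12 and 16.02 in TFH KO. Its labels were far apart, and it rose by 1.31 ± 0.10 in WT and 1.44 ± 0.10 in KO. Eif5 rose by 0.57 and 0.67, and Eif5a by 0.54 and 0.43, while Eif2s2 rose by 0.40 in WT and was at 0.09 in KO (adjusted p = 0.591).

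**Figure D5:**
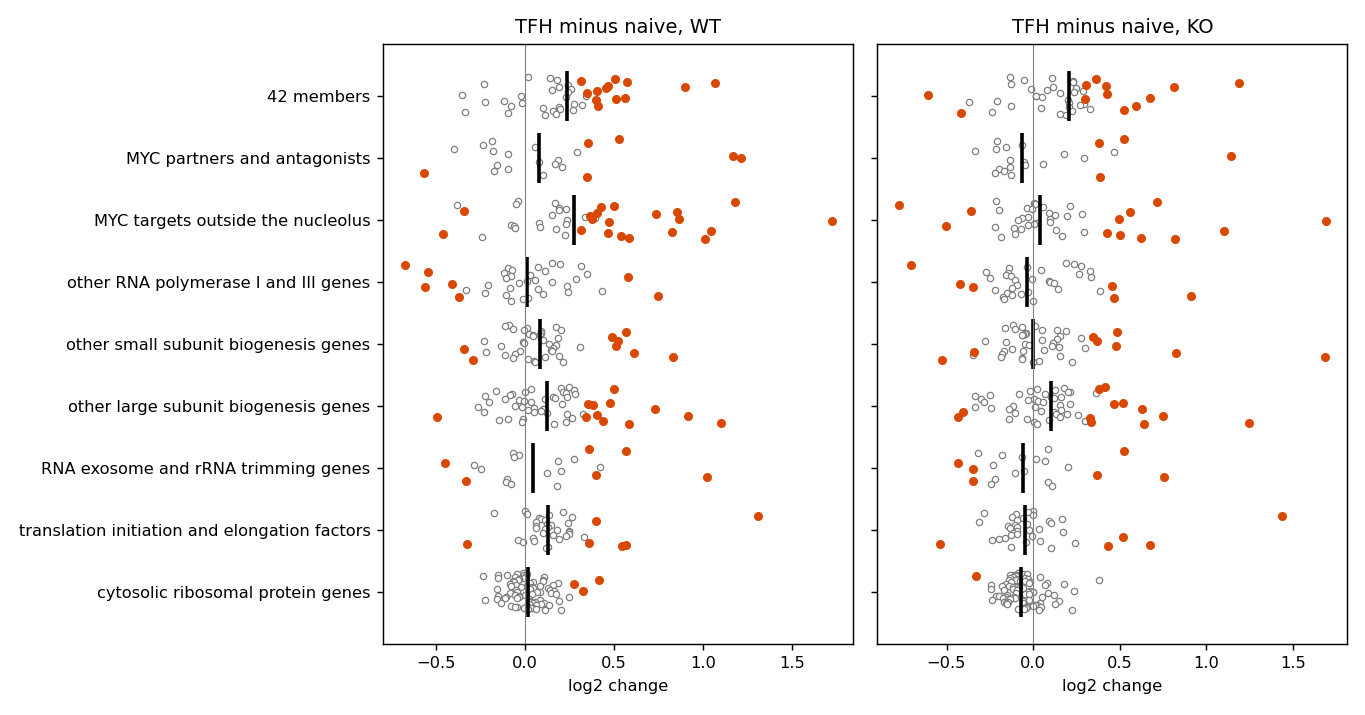
Log2 change from naive to TFH-labelled libraries in WT (left) and KO (right) for the 42 members and for 8 lists of related genes; each point is a gene, orange points were called at an adjusted p below 0.05, and the black bar is the list's median. The medians of the 42 members lie at 0.23 and 0.20, and those of the ribosomal protein genes at 0.01 and -0.07.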

How the data were processed

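Per the labels' protocols, mRNA libraries were read from 1 end over 51 bp. BWA and the build mm10 were used, per the submitters' processing notes, with no version. The sources used here name no counter, annotation or normalization. The authors deposited 1 table of log2 values per library, from 1.16 to 19.48, for 14042 genes. The sorted log2 values of the deposited tables agree within 0.03 above the lowest percentile, so the libraries were on 1 common distribution. Depth is unknown.

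All genes and 8 libraries were fitted with limma 3.58.1 (R 4.3.3): 1 mean per group, 4 residual degrees of freedom, empirical Bayes with a trend and the robust option, two-sided, Benjamini-Hochberg over 14042 genes. An exact permutation of 2 against 2 cannot go below p = 0.33. Replicate numbers follow the order of deposit.

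The members and gene lists were chosen with earlier results of these data known. Library values were printed for Myc and up to 4 members per role by p in WT. Listed genes were up to 4 called ones per list by p in WT. Promoters are RefSeq (GRCm38.p6) and positions GENCODE vM21 (GRCm38). Alternatives covered the variance model, scaling, filters, a pseudocount of 1, a B cell marker covariate, a log2 change of at least 0.5, and left-out libraries.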

Additional observations from a re-analysis of the deposited data

How the results depend on the processing

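In WT, where 13 were called, the count was 7 with libraries centred on 14 reference genes, 6 without replicate 2 of both TFH-labelled pairs, 6 with a log2 change of at least 0.5 required, and 6 to 13 when 1 library was left out. In KO, where 12 were called, it was 7 without the mean-variance trend, 3 without those replicates, 6 with the minimum change and 4 to 10 when 1 library was left out. Centring on reference genes, of which 7 were themselves called in WT, put the median of all genes at -0.073 in WT and 0.118 in KO, and the member medians at 0.155 (from 0.235) and 0.334 (from 0.205). It put the KO minus WT medians at 0.129 (TFH-labelled, from -0.011) and -0.017 (naive, from 0.053) and that of the interaction at 0.155 (from -0.054). Centring on ribosomal protein genes gave 0.273 for the KO median and 0.023 for the interaction. With reference genes, Fbl, Ncl, Npm1, Noc4l, Ltv1, Noc2l and Ppan lost their WT call, and Nop58, Imp4 and Wdr12 their KO call. Noc4l and Ppan also lost the WT call with ribosomal protein genes, and Fbl, Noc4l and Ppan without the mean-variance trend. Nop10 was called lower in WT with either centring. The upper end of each range of counts with 1 library left out came from fits without a library of the other genotype. When 1 library of a compared group was left out, calls over all genes fell as well. With 1 library left out, the medians ran from 0.142 to 0.299 in WT, from -0.020 to 0.131 in naive KO minus WT and from -0.139 to 0.033 in the interaction. CACGTG was found in 25.0% of member promoters, in 8.3% before the start only, in 16.7% after the start only, and the related E-boxes brought it to 58.3%. The cause of these shifts was not tested. For single members 3808 values kept their side of the threshold, 116 lost a call and 24 gained one. These counts cover all comparisons. In KO minus WT within each label and in the interaction no member was called in any setting, so all of those values kept their side. The 116 lost calls thus all come from the 13 calls in WT and the 12 in KO. With a call in either fit, 0 values changed sign. Some values without a call did change sign, such as that of Polr1b in WT, which ran from -0.15 to 0.11. Depth is unknown. No paired analysis was possible because the labels give no replicate numbers, and those used here only name the libraries in order of deposit.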
